A study of Mus musculus with 2 samples.

Results

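Myb binding was examined at 10 genes of the ETS family of transcription factors that are known from blood progenitors: Spi1, Spib, Fli1, Erg, Etv6, Ets1, Ets2, Elf1, Elf4 and Gabpa. A peak was assigned to a gene when its summit, the base with the most reads, lay inside the gene or within 50 kb of it. This rule took 103 of the 25793 deposited Myb peaks (0.399%), and each of the 10 genes had at least 1. No peak fell in the windows of 2 of these genes.

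Myb ChIP-Seq was performed in the study with lineage-negative (Lin–) bone marrow cells from WT mice, at a purity above 80%. A precipitate of the same cell type with nonspecific rabbit IgG was the control. Each precipitate gave 1 library without a replicate. No test between groups was therefore possible, and the values describe a single Myb library. A list of binding sites holds no expression values, so the identity of the cells could not be checked against marker genes.

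ETS factors share a DNA-binding domain that recognizes a GGAA core. In blood they set lineage and keep the stem cell pool: PU.1, the product of Spi1, directs myeloid and B cell development, and Erg and Fli1 maintain stem cells and megakaryocytes. Myb, a DNA-binding regulator of the same progenitors, recognizes a short AAC core, and many enhancers of blood progenitors are known to carry sites for Myb, ETS, RUNX and GATA factors side by side.

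Of the 103 peaks, 8 reached a fold enrichment of 10, and they lay at 7 of the genes. In the list 1153 peaks, or 4.47%, did so. Fold enrichment compares the pileup of Myb reads on the summit with that of IgG nearby, as a ratio after 1 is added to each. The 8 windows of 101 bases around these summits are printed first, because they are the sites with the highest fold enrichment. Below, strongest refers to fold enrichment, and these sites are not all those with the most Myb reads. The Ets2 summit had 33 reads at the lowest background among the 103 peaks. Summits with more reads were left out, such as those of Erg at 136.97 kb (42 reads, 8.33-fold) and Fli1 at 26.66 kb (41 reads, 8.14-fold). Then 30 bases of the single Gabpa peak follow, because it combines a PU.1 and an ETS motif at a promoter. Bases run 5′ to 3′ along the strand of the gene in the GRCm38.p6 assembly (mm10) held by RefSeq, and + gives the distance of the summit past the 5′ end of the gene. Capitals mark matches, on either strand, to 5 motif sets. The Myb set held the form CAACTG together with the form CAACGG, and the same letters with a first T, which read TAACTG as well as the form TAACGG. The ETS set held the form CCGGAA together with the form AGGAAG, and the PU.1 set held GAGGAAGT, which contains an ETS match. The RUNX set held the form TGTGGT together with the form TGCGGT, and the GATA set held the form AGATAA together with the form TGATAA.
Spi1, +629 bp, chr2:91082969-91083069, plus strand: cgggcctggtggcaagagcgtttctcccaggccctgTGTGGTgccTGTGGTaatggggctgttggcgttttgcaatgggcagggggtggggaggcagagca
Fli1, +32842 bp, chr9:32509969-32510069, minus strand: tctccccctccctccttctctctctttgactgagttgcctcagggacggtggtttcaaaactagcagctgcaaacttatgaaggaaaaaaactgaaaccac
Erg, +147250 bp, chr16:95439293-95439393, minus strand: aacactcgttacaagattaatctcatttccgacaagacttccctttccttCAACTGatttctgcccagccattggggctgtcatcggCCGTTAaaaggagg
Etv6, +150732 bp, chr6:134186382-134186482, plus strand: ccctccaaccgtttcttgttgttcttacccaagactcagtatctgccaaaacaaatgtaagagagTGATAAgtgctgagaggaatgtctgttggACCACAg
Etv6, +154224 bp, chr6:134189874-134189974, plus strand: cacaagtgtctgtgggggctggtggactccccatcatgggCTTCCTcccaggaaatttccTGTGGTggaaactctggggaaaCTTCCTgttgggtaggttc
Ets2, +27000 bp, chr16:95729025-95729125, plus strand: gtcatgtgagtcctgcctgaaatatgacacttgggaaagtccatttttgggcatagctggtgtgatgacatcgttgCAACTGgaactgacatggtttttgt
Elf1, +40653 bp, chr14:79521797-79521897, plus strand: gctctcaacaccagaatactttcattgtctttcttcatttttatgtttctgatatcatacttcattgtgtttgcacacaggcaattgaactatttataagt
Elf4, +37784 bp, chrX:48425298-48425398, minus strand: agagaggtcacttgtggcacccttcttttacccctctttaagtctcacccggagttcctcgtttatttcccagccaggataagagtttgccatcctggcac
Gabpa, +104 bp, chr16:84835011-84835040, plus strand: GAGGAAGTggagggtaagtgcTTCCGGgtc

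Myb motifs were found in 2 of the 8 strongest windows (25%, exact binomial 95% interval 3.19 to 65.1), those of Ets2 and Erg, and in 29.5% of all 1153 summits of at least 10-fold. The Erg window held a pair of them, 1 starting at the summit base itself. RUNX motifs were found in 3 of the 8 (37.5%, 8.52 to 75.5) and in 14.9% of the 1153, a share that this interval held. The Spi1 window held a pair of TGTGGT matches, the second ending on the summit base. The windows of Elf1, Fli1 and Elf4 held no match to any of the 5 sets, although the Elf1 window belonged to the strongest peak of that gene, with a fold enrichment of 18.32. A match describes letters in a window and does not show that a factor was bound through it.

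Fold enrichment at the 103 peaks had a median of 4.78 (quartiles 3.79 and 6.1), with a range from 2.45 to 24.4. Over the whole list the median was 4.51 (quartiles 3.73 and 5.95), so as a set the ETS gene peaks were close in strength to Myb peaks in general. The Myb reads under each summit, worked back from the deposited enrichment and p-value, ran from 9 to 91 around a median of 20, against a median of 18 in the list. The q-value was above 0.05 for 7 of the 103, while the list held 7.24% of such peaks.

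The ETS gene peaks lay mostly in introns, in windows that take in whole gene bodies. A summit within 3 kb of a start of any gene was counted as a promoter peak. This class held 34 of the 103 (33%, exact binomial 95% interval 24.1 to 43) and 57.6% of all peaks in the list. Introns held 64 (62.1%, 52 to 71.5), intergenic sequence 3, and an exon and a 3′ UTR 1 each. Inside the genes themselves lay 87 summits, with 13 upstream and 3 downstream. For 88 the nearest protein-coding start was that of the ETS gene, and for 15 it was that of a neighbor. These intervals cover counting error only, and peaks of 1 gene are not independent of each other. No share of the list is given here for introns, gene bodies or the nearest start. Of the 103 peaks, 70 were at 3 genes longer than 100 kb. How far the rule and gene length set these counts was not tested.

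All 10 genes had a peak in the window, as did 68.7% of 21938 protein-coding genes. A peak within 3 kb of a start of the gene itself was listed for 9 of the 10, against 39.9% of protein-coding genes, and Ets1 was the exception. At least 20 peaks were listed for 3 of the 10, against 0.547%, and these 3 genes, Etv6, Elf1 and Erg, held 70 of the 103 peaks. A peak of at least 10-fold was listed for 7 of the 10, against 11.8%, while Spib, Ets1 and Gabpa had none. When peaks with edges within 1 kb of each other were joined, Etv6, Elf1 and Erg had 15, 13 and 11 regions, and none reached 20. The limits of 20 peaks and 10-fold were chosen after the values had been seen.

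Long genes offer more room for peaks. The ETS genes had a median length of 76.7 kb against 17.4 kb for all protein-coding genes, and 5 of them are longer than 100 kb. Among protein-coding genes of that length, 1.2% had at least 20 peaks, and of the 5 ETS genes 3 did. A longer window also gives more room for a strong peak. The share with a 10-fold peak, and the ranks of single peaks below, were not compared among genes of like length. Per 100 kb of window the 10 genes had a median of 4.61 peaks, against 1.52 for protein-coding genes, counted by the same rule. The 4.61 lies between the values of Spi1 (4.5) and Spib (4.71). At these genes 3 of 6 and 4 of 5 peaks were nearer to the coding start of another gene. By peaks per 100 kb Elf1 was the densest of the 10, with 11.4, a density that 2.23% of protein-coding genes reach. It was followed by Etv6 with 8.07, Erg with 6.11 and Fli1 with 5.44, and the lowest was Gabpa with 0.776.

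**Figure D1:**
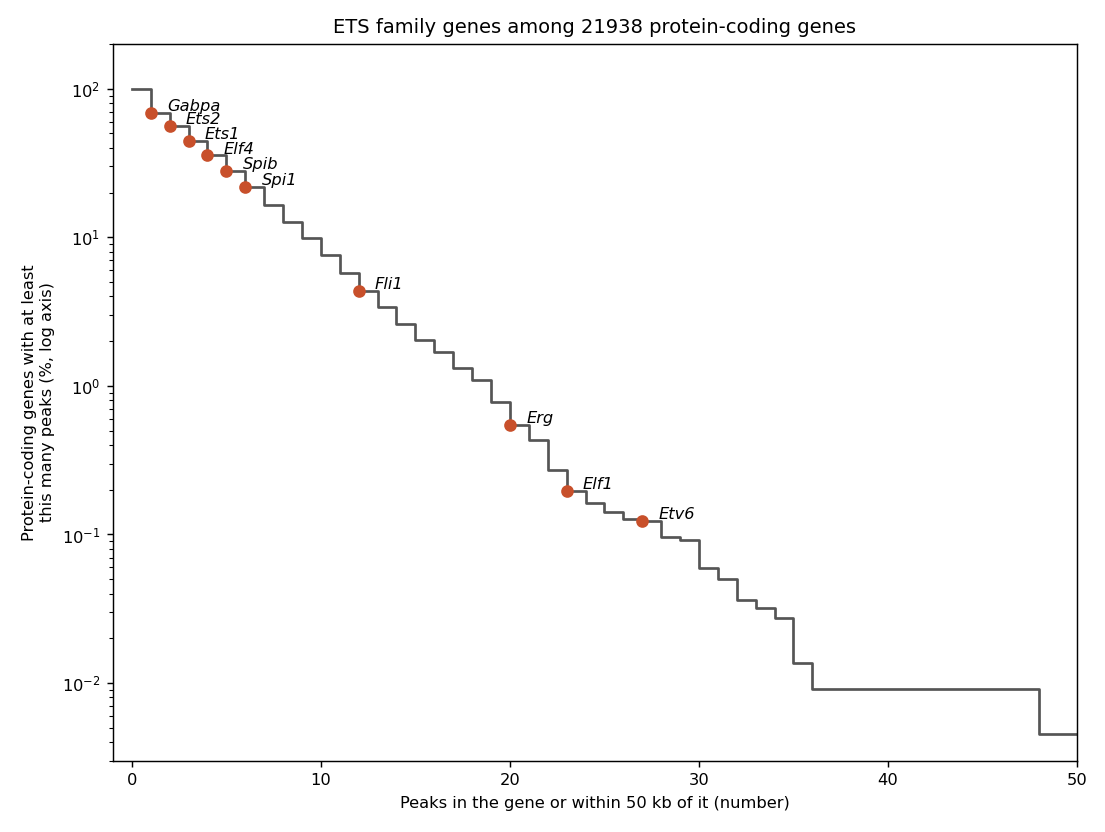
The line gives the percentage of 21938 protein-coding genes (log axis) that had at least the number of Myb peaks on the horizontal axis, counted inside the gene or within 50 kb of it, and the points mark the 10 ETS genes. Etv6, Elf1 and Erg lie where fewer than 1% of genes remain, with 0.123%, 0.196% and 0.547%, and the other 7 lie above 4%. The axis stops at 50 peaks, and 1 gene with 181 lies beyond it.

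Spi1 encodes PU.1, whose level sets the choice between myeloid and other fates. The gene (chr2:91082390-91115756, plus strand) had 6 peaks, and the one with the highest fold enrichment lay upstream of its main coding start. The gene record begins with a short transcript, Spi1-204, whose start is 13.71 kb upstream of that of Spi1-201, the main coding transcript. The strongest peak (chr2:91082627-91083416) had its summit 629 bp past the start of the record and 13.08 kb upstream of the main coding start. It had a fold enrichment of 14.75 and a −log10 q-value of 38.57. It rested on 59 reads (exact Poisson 95% interval 44.9 to 76.1), above the interval of the next peak of the gene. Only 2.78% of protein-coding genes had a peak as strong in their window. An upstream regulatory element that keeps PU.1 high in progenitors, and that is known to bind RUNX factors, lies in this stretch. Its borders were not in the files used here, and its overlap with the peak was not measured.

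The other Spi1 peaks were weaker. Upstream of the whole gene record lay 3 peaks, all of them in or next to neighboring genes. The nearest was 11.9 kb upstream of the record, 72 bp from the start of Slc39a13, a zinc transporter gene, with a fold enrichment of 8.55 on 28 reads (18.6 to 40.5). The next was 21.33 kb upstream, inside the proteasome gene Psmc3, with 5.92 on 19 reads. The farthest was 28.48 kb upstream, 103 bp from the coding start of Psmc3, with 5.59 on 17 reads, and this was the only one of the 6 with a Myb motif within 50 bp of its summit. These peaks can therefore be assigned to Slc39a13 and Psmc3 as well as to Spi1. At the main promoter, a summit 849 bp past the Spi1-201 start had a fold enrichment of 4.2 on 18 reads (10.7 to 28.4). The last peak, in the second intron, 19.22 kb past the start of the record, had 4.51 on 16 reads. The Myb signal at the main promoter was thus lower than at the site 13.08 kb upstream, with read intervals that did not overlap.

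**Figure D2:**
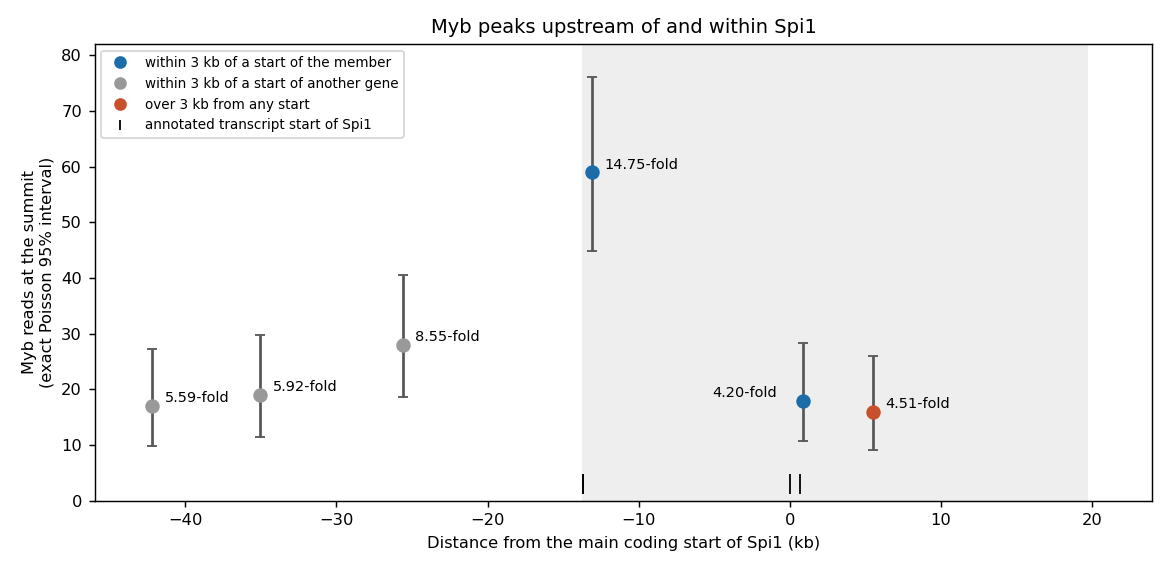
Points give the Myb reads at the summit of the 6 Spi1 peaks, with exact Poisson 95% intervals, against the distance in kb from the main coding start of Spi1, and labels give the fold enrichment. The gene record is shaded and its transcript starts are ticks. The peak 13.08 kb upstream of the main coding start stands highest, at 59 reads, and the other 5 lie between 16 and 28.

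Spib encodes Spi-B, the relative of PU.1 that acts in B cells and plasmacytoid dendritic cells. The gene is short (chr7:44525993-44532071, minus strand, 6.1 kb), and none of its 5 peaks lay inside it. The only peak within 3 kb of its start was 2594 bp upstream, with a fold enrichment of 5.72 on 21 reads (13 to 32.1). Its summit fell inside Pold1, the neighboring DNA polymerase gene, 426 bp from another annotated start of Pold1. The other 4 summits were each at most 56 bp from the start of a neighbor, with fold enrichments of 5.56 at Emc10, 5.46 at an upstream start of Pold1, 3.67 at Napsa and 2.89 at Nr1h2. At Spib, then, every listed peak was nearer to an annotated start of another gene than to its own.

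Erg maintains stem cell self-renewal. The gene (chr16:95359169-95586593, minus strand) had 20 peaks, all inside it, and none lay near its outer starts. No summit was found in the first 98.47 kb, which hold the 5′ end of the record and the main coding start at 56.23 kb (Erg-208). The first peak, at 98.47 kb, had a fold enrichment of 3.44 on 11 reads (5.49 to 19.7), and the next, at 121.84 kb, had 8.03 on 30 reads (20.2 to 42.8) and a GATA motif. The other 18 lay past the inner starts of the shorter coding transcripts at 127.24 to 127.35 kb or at them. A summit at 127.3 kb lay 6 bp from the start of Erg-207, with a fold enrichment of 7.47 on 26 reads (17 to 38.1), and 2 others lay within 3 kb of these starts, with 5.46 and 4.37. When peaks with edges within 1 kb were joined, 10 of the 20 formed a single region of 12.27 kb, with summits from 127.3 to 139 kb and fold enrichments from 3.59 to 8.33.

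The strongest Erg peak (chr16:95438409-95440845) was 147.25 kb past the 5′ end and 19902 bp past the inner starts, in the second intron of the main transcript. Its fold enrichment was 14.6, and its 88 reads (70.6 to 108) were more than those of any other ETS gene peak but 1. The next Erg peak by fold enrichment, 181.04 kb past the 5′ end, had 9.22 on 31 reads (21.1 to 44), and the intervals did not overlap. The last Erg peak, at 225.97 kb in the 3′ UTR, had 3.14 on 9 reads and a q-value above 0.05, and its nearest coding start was that of the potassium channel gene Kcnj15. Erg also had the most Myb motifs of the 10 genes, at 7 of its 20 summits, among them the strongest. This motif was at 16.7% of all summits in the list, and genes with more peaks had more chances of a match.

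Fli1, the paralog of Erg with which it shares roles in stem cells and megakaryocytes, had its Myb peaks toward the 5′ end of the gene. All 12 summits lay between 13.56 kb upstream and 40.05 kb past the 5′ end of the gene (chr9:32422204-32542861, minus strand), which is 120.7 kb long. Within 3 kb of its starts were 2 peaks. A summit 267 bp from the main coding start had a fold enrichment of 7.77 on 29 reads (19.4 to 41.6). The other, 620 bp past the outer start, had only 2.51, with a q-value above 0.05. The single upstream peak, at 13.56 kb, had 6.75 on 28 reads and a GATA motif.

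The other 9 Fli1 peaks were in the first intron or at noncoding starts within it. The strongest (chr9:32508408-32510296) was 32.84 kb past the 5′ end, with 10.59 on 46 reads (33.7 to 61.4), and 364 bp from a start of the annotated gene Gm38346. The next, 26.66 kb past the 5′ end, had 8.14 on 41 reads (29.4 to 55.6) and a RUNX motif, so these 2 peaks were not separated by their read intervals. A Myb motif was found at 1 of the 12 summits, and GATA motifs at 3.

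Etv6 encodes a repressor that stem cells of the adult marrow need and that is broken by translocations in leukemia. Of the 10 genes, it had the most peaks and the strongest one. The gene (chr6:134035700-134270158, plus strand) held 27 peaks, 26 of them inside it and 1 just upstream. As many peaks were counted for 0.123% of protein-coding genes. Peaks began at the promoter, where the summit 410 bp upstream of the start had a fold enrichment of 6.79 on 34 reads (23.5 to 47.5) and an ETS motif. The other 2 promoter peaks, at 1738 and 2592 bp, had 5.21 and 3.52. Within 10 kb of the 5′ end lay 9 peaks, with fold enrichments from 3.52 to 6.79, and they formed a single region of 11.87 kb when edges within 1 kb were joined.

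The strongest Etv6 peak (chr6:134185235-134187652, 2418 bp wide) was 150.73 kb past the 5′ end, in the second intron. Its fold enrichment of 24.4 was reached or passed in the window of only 0.191% of protein-coding genes. It rested on 91 reads (73.3 to 112), with a −log10 q-value of 76.56, and its window held a GATA and a RUNX motif. A second strong peak followed 154.22 kb past the 5′ end, with 11.36 on 43 reads (31.1 to 57.9), a RUNX motif and a pair of ETS motifs. The read intervals of both did not overlap. The other 16 Etv6 peaks, between 19.83 and 184.72 kb along the first and second introns, lay between 2.45 and 6.97. The last of them was nearer to the coding start of Bcl2l14, a gene beyond the 3′ end of Etv6, than to those of Etv6. Myb motifs were at 6 of the 27 summits and at neither of the 2 strongest.

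Ets1 and Ets2 are close paralogs, activated downstream of Ras signaling, and Ets1 is best known from lymphocytes. Ets1 (chr9:32636221-32757820, plus strand) had 3 peaks, none of them within 3 kb of a start. Its coding transcripts start 59.8 kb past the 5′ end of the record. Upstream of that start were summits at 31.95 and 36.46 kb, with fold enrichments of 5.98 and 5.7, and the strongest was 69.82 kb past the 5′ end, 10.02 kb into the coding transcript, with 6.23. All 3 rested on 22 or 23 reads, and their intervals overlapped. This count was near the middle of all genes, since 44.7% of protein-coding genes had as many peaks.

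Ets2 (chr16:95702075-95721051, plus strand) had 2 peaks. At the promoter, 85 bp upstream of the start, the fold enrichment was 4.95 on 18 reads (10.7 to 28.4). The stronger peak (chr16:95728744-95729681) was intergenic, 27 kb past the 5′ end and beyond the 3′ end of the gene, with 10.72 on 33 reads (22.7 to 46.3) and a Myb motif. The nearest annotated start was one of Ets2 itself, and the read intervals of the 2 peaks overlapped.

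Elf1, an activator active in T cells and blood progenitors, had the densest binding. The gene (chr14:79481194-79582494, plus strand) had 23 peaks, of which 19 were inside it. At its main start the summits were 810 bp upstream, with a fold enrichment of 4.67 on 16 reads, and 611 bp downstream, with 8.14 on 41 reads (29.4 to 55.6). This promoter is shared with Wbp4, which had an annotated start nearer to each summit, at 578 and 285 bp. By coding starts alone, the upstream summit was nearest to Elf1. Inner starts followed at 34.48 to 34.5 kb, where 3 peaks lay within 3 kb. The nearest of them, 106 bp from the start of Elf1-203, had 9.01 on 33 reads (22.7 to 46.3). Another, at 33.35 kb, had 2.56 and a q-value above 0.05.

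The strongest Elf1 peak (chr14:79520266-79523484) was 40.65 kb past the 5′ end and 6149 bp past the inner starts. It had a fold enrichment of 18.32 on 68 reads (52.8 to 86.2), above the interval of the peak at the inner start. The interval of the peak 611 bp past the main start, with 41 reads (29.4 to 55.6), did overlap it. A peak as strong as 18.32-fold was found for 0.998% of protein-coding genes. Another run of 6 peaks between 49.09 and 56.58 kb joined into a region of 8.79 kb, with fold enrichments from 2.66 to 5.64. Outside the gene, a summit 29.3 kb upstream, with 7.18, was 54 bp from the start of Kbtbd6, and one at 106.23 kb, with 3.5, was 266 bp from the start of Sugt1. Myb motifs were at 5 of the 23 summits, and a q-value above 0.05 at 4.

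Elf4, known for its part in natural killer cells, is the only X-linked gene of the 10. The gene (chrX:48411046-48463132, minus strand) had 4 peaks, all inside it. As many were counted for 35.6% of protein-coding genes overall and for 7.7% of those on X. Nothing was listed at the outer start, and the peak 1445 bp past the main coding start had a fold enrichment of 4.78 on 14 reads (7.65 to 23.5). The strongest (chrX:48424446-48425690) was 37.78 kb past the 5′ end, in the first intron, with 10.59 on 42 reads (30.3 to 56.8), above the interval of the promoter peak. The interval of the peak at 29.31 kb, with 20 reads (12.2 to 30.9), did overlap it.

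Gabpa encodes the DNA-binding subunit of GABP, which acts at promoters of housekeeping and mitochondrial genes. Its single peak (chr16:84834667-84835567) had a summit 104 bp past the 5′ end of the gene (chr16:84834925-84863779, plus strand), with a fold enrichment of 4.69 on 17 reads (9.9 to 27.2). The promoter is shared with Atp5j, a subunit gene of the mitochondrial ATP synthase, whose nearest start was 24 bp from the summit. This was 1 of the 2 summits among the 103 with the PU.1 motif.

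For 8 of the genes peaks were listed both at an own promoter and elsewhere. The strongest was elsewhere in 6 of the 8, and in 66.6% of the 7550 protein-coding genes of that kind. In Spi1 and Spib it was within 3 kb of an own start, and in Spi1 this depended on the upstream transcripts Spi1-204 and Spi1-202, which start 18 bp apart. In Spib it was 2594 bp from the start and nearer to one of Pold1. Its 5.72 on 21 reads was close to the next Spib peak, 5.56 on 20 reads. The 19 peaks within 3 kb of an own start had a median fold enrichment of 4.95 (2.51 to 14.75), and the other 84 a median of 4.75 (2.45 to 24.4).

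Motifs near the summits were counted within 50 bp on both strands. The Myb motif was found at 21 of the 103 summits (20.4%, exact binomial 95% interval 13.1 to 29.5), with 16.7% in all summits. Of these 21, 18 were in Erg, Etv6 and Elf1, which held 70 of the 103 peaks. Outside promoters it was at 19 of 69 summits (27.5%, 17.5 to 39.6), against 19.4% of all summits there, and at promoters at 2 of 34 (5.88%, 0.72 to 19.7), against 14.7%. Each of these intervals held the share of the list.

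The ETS motif was found at 11 of the 103 summits (10.7%, 5.45 to 18.3), and the share of all summits, 19.8%, lay above this interval. Split by location, it was at 8 of 69 outside promoters (11.6%, 5.14 to 21.6), against 21%, and at 3 of 34 at promoters (8.82%, 1.86 to 23.7), against 18.9%, and both intervals held the share of the list. A Myb and an ETS motif together were at 1 summit (0.971%, 0.0246 to 5.29), with 3.28% in the list. The RUNX motif was at 12 (11.7%, 6.17 to 19.5), with 12.2% in the list. The GATA motif was at 15 (14.6%, 8.39 to 22.9), with 13.8%, and the PU.1 motif at 2 (1.94%, 0.236 to 6.84), with 1.64%. None of the 5 sets was found at 53 summits (51.5%), close to the 51.1% of the list.

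**Figure D3:**
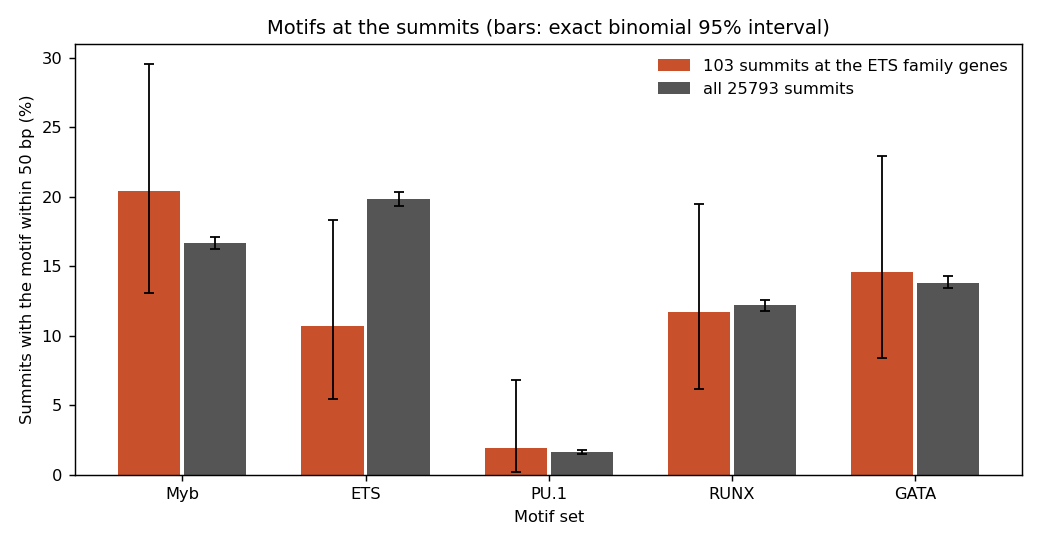
Bars give the percentage of summits with a match to each motif set within 50 bp, for the 103 summits at the ETS genes and for all 25793 summits, with exact binomial 95% intervals that cover counting error only. The share of the ETS motif is 10.7% against 19.8%, which lies above its interval, and the intervals of the other 4 sets hold the share of the list.

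The rest of the family was measured in the same way. Of 16 other ETS genes, 12 had a peak in the window. Their median was 1.5 peaks per gene against 5.5 for the 10 above, and 1.31 per 100 kb, with genes lacking a peak included. The 5.5 lies between Spib with 5 peaks and Spi1 with 6, of which 4 and 3 were nearer to another gene's coding start. Nothing was listed for Ehf, Etv1, Etv3 and Fev, which are best known from epithelial and neuronal tissues or, for Etv3, as a repressor of proliferation. A peak within 3 kb of an own start was found for 5 of the 16: Elf2, Elk3, Elk4, Erf and Etv5. Elf2, the close relative of Elf1, had 21 peaks, with up to 8.91-fold at its own starts, but 11 of them were nearer to the start of another protein-coding gene. Erf, a repressor that answers to ERK signaling, had 13 peaks, of which 12 were nearer to another gene. Per 100 kb of window, Elf2 had 11.2 peaks and Erf 12, close to the 11.4 of Elf1.

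Elk4, a ternary complex factor at serum response genes, had 8 peaks (6.4 per 100 kb), all nearest to its own start, with up to 7.43-fold. Elk3, of the same subgroup, had 6 peaks, 3 of them nearer to another gene's coding start, and 4.22-fold at its start. Etv5 had 3 peaks with up to 4.29-fold at its starts. The GABP beta partners Gabpb1 and Gabpb2, which are not ETS proteins but bind Gabpa, had 6 and 8 peaks. Of these peaks, 4 and 6 were nearer to the coding start of another gene. At their own starts Gabpb1 and Gabpb2 had up to 6.97-fold and 7.56-fold. At least 10-fold was reached in the windows of 4 of these 18 genes. These were Elf2 with 14.35, Erf with 11.75, Elf3 with 11.11 and Spic with 11.03. None of these summits lay inside the gene. They were 130679 bp (Elf2) and 37539 bp (Erf) past the 5′ end, beyond the 3′ end, and 9751 bp (Elf3) and 46139 bp (Spic) upstream. The Spic peak was nearer to the coding start of another gene, and for those of Elf2, Erf and Elf3 the nearest coding start is not given here. The Elf2 and Erf summits lay 50257 and 37508 bp from the nearest start of the gene itself.

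**Figure D4:**
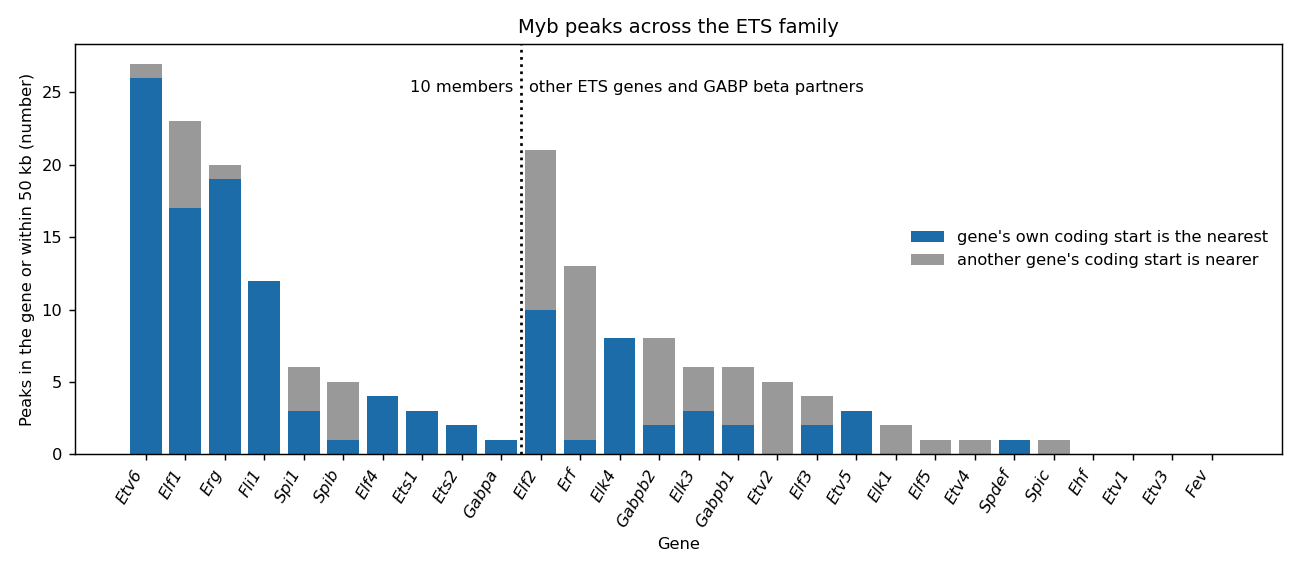
Bars give the number of Myb peaks inside each gene or within 50 kb of it, with the 10 genes on the left of the dotted line and the 16 other ETS genes and 2 GABP beta partners on the right. Blue marks peaks nearest to a protein-coding start of the gene and gray those nearer to another gene. Blue makes up 26 of 27 at Etv6 and 19 of 20 at Erg, and 10 of 21 at Elf2 and 1 of 13 at Erf.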

How the data were processed

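ChIP-Seq reads of a Myb and an IgG precipitate from WT Lin– cells (1 library each) were processed by the authors with Cutadapt 1.15, BWA 0.7.13 and Picard against mm10, and narrow peaks were called with MACS2 2.1.1.20160309 against IgG, with pseudo-replicate overlap, mapping quality and blacklist filters. The deposited list gives the fold enrichment ratio, the −log10 p-value and −log10 q-value by the authors, and a score that equals 10 times the −log10 p-value rounded down, at most 1000.

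Summits were assigned to GENCODE vM21 genes (GRCm38.p6) with 1-based coordinates. Distances are from the 5′ end of the gene record, along transcription, and 0 peaks passed a chromosome end. Annotated starts include noncoding transcripts. A summit took the first location that applied: promoter (3 kb), UTR, exon, intron, or else intergenic. Depth is not given in the list. Summit reads were solved by the MACS2 formula from both values of each peak, with a pileup scale of 0.7695. Whole reads were found for 100% of peaks at a tolerance of 0.005% of the −log10 p-value, with more than 1 match in 0%. Intervals are exact Poisson (reads) or Clopper-Pearson (shares) at 95% and cover counting error only. The steps were tested on simulated data. Sequences came from the RefSeq copy of GRCm38.p6. Python 3.11.15, numpy 2.4.6, pandas 2.3.3, scipy 1.17.1, pysam 0.24.0 and matplotlib 3.10.9 were used.

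The genes and lists were chosen with earlier results of these data known. Named are all 10 genes, the strongest peak of each, every peak within 3 kb of its 5′ end, every peak upstream of Spi1, other ETS genes with a peak within 3 kb of a start or with none in the window, and neighboring genes only where a peak lies nearer to their start. Peaks and genes past 10-fold, the runs of joined peaks and the other single peaks given were chosen after their values had been seen. Alternatives were windows of 10, 25 and 100 kb, promoter windows of 1 kb and 500 bp, the 5′ end alone, −log10 q-values of at least 2 and 5, q-values of at most 0.05, any base in the window, the nearest coding start, and other motif windows and letters. Joining peaks within 1 kb was added after the data had been seen.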

Additional observations from a re-analysis of the deposited data

How the results depend on the processing

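The number of peaks at the 10 genes stayed between 93 and 111 with windows of 10, 25 or 100 kb, any base of the peak in the window, the nearest protein-coding start, or filters on the q-value (−log10 q ≥ 2, or q ≤ 0.05). It was 53 with −log10 q ≥ 5, by the construction of a stricter filter, and 68 when edges within 1 kb were joined, which was chosen after seeing the data. Etv6, Elf1 and Erg then had 15, 13 and 11 regions, and with −log10 q ≥ 5 had 12, 13 and 11 peaks, so none kept 20. With a window of 10 kb, Spi1 had 3 peaks and Spib 1, since the others lay at neighbors. Of 50 alternative counts per gene, 34 stayed within 1.5 times the count reported and 16 did not. A peak at an own promoter was found for 7 of the 10 genes with promoter windows of 1 kb or 500 bp (without Spib and Elf4), for 7 with the 5′ end alone (without Erg and Elf4) and for 6 with −log10 q ≥ 5. The Myb motif was at 11 summits within 25 bp (10.7% against 8.68% of all), at 34 within 100 bp (33% against 30%) and at 61 with the shorter form AACNG (59.2% against 54.3%). No paired analysis was possible because each precipitate had 1 library, and no replicate could be left out. The sites under the lowest read numbers, and genes with no listed peak, are limited by this depth.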
